A study of Mus musculus with 36 samples.

Results

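Lungs of KitWsh mice that had received only phosphate-buffered saline (PBS) were compared between the engraftment codes MCifngR (3 arrays) and MC (3 arrays), which together are 6 of the 36 arrays of the series. The arrays were chosen by their titles, and no measured value entered the choice. All 6 samples were labelled as total lung RNA of female C57BL/6 mice carrying the KitWsh (sash) allele, an inversion upstream of Kit that leaves adult mice without mast cells. The labels do not spell out the codes. They are read here as mast cells grown from wild-type donors (MC) and from donors lacking the interferon-gamma (IFN-γ) receptor (MCifngR), since IFN-γR1-/- mice are among the strains named in the protocol. Both groups went through the vehicle schedule of an asthma protocol, with injections into the abdomen on days 1, 4 and 7 and weekly drops into the nose for 9 weeks from day 12. The comparison asks whether both kinds of engrafted lung already differed without ovalbumin (OVA). The same contrast is also given for 4 MC and 4 MCifngR arrays of KitWsh mice that received OVA on this schedule. Their doses were 50 µg at each injection and 20 µg at each nasal challenge. PBS-treated wild-type (WT, 4 arrays) and unengrafted KitWsh lungs (3 arrays) give the background level of each gene. All other cells of the engrafted recipients keep the IFN-γ receptor under this reading, and neither the number of lung mast cells nor the ages of the mice are in the sources used here. Nothing in the labels says that the samples of a group came from separate mice, so p-values measure only the spread between these samples.

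Mast cells are tissue-resident granulocytes that store histamine, proteases and heparin and carry the high-affinity IgE receptor. They need the receptor tyrosine kinase Kit for survival, which is why engrafting cultured mast cells into sash mice is used to assign an allergic response to them. IFN-γ is a cytokine of T cells and natural killer cells. It binds a receptor of the chains Ifngr1 and Ifngr2, acts through the kinases Jak1 and Jak2, and switches on chemokines such as Cxcl9 and Cxcl10 and the genes of antigen presentation.

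The groups of lungs differed across much of the transcriptome. Of 11044 genes tested, 3360 (30.4%) passed limma's moderated test at a Benjamini-Hochberg adjusted p under 0.05, of which 2664 (24.1%) were higher and 696 (6.3%) lower in MCifngR lungs. The increases were small and many, with a median of 0.62 on the log2 scale. The decreases were fewer and reached further: by the fitted difference, which is no bound for genes near the floor, 59 called genes were more than 4-fold and 19 more than 8-fold lower, against 8 and 0 genes as far higher. The 3 arrays of each group did not overlap for 5550 genes (50.3%). Correlation of arrays across these genes, which are not independent replicates, was 0.979 to 0.987 within MC, 0.985 to 0.991 within MCifngR and 0.95 to 0.968 between the groups.

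Several properties of the values moved with the groups. The median difference over all tested genes was 0.23, and it fell from 0.34 for genes with a mean level under 6 to 0.05 for those over 12. It also depended on the genes and probe sets taken, being 0.07 with no filter on low values and 0.14 with the mean of all probe sets. With each array centred on its median, 826 genes were called higher and 1064 lower, so the share of increases among the calls went from 79.3% to 43.7%. Differences are therefore read below against 0.23, and the counts after centring are given by list. Counts of called list members before centring are read against the 24.1% of all genes called higher and the 6.3% called lower. Those after centring are read against 826 higher and 1064 lower among the 11044 genes. The filter let through 121 genes only because all MCifngR arrays were over 5, of which 111 were called higher, and 55 only through the MC arrays, of which 52 were called lower. The control probe sets at the 3' and 5' ends of the beta-actin transcript differed by 3.02, 3.41 and 2.33 in the MC arrays and by 3.92, 3.60 and 4.19 in the MCifngR arrays. A larger value means that less of the 5' end was copied, as in fragmented RNA. The groups did not overlap (2.92 ± 0.55 against 3.90 ± 0.29, SD, n = 3 each; two-sided exact permutation test p = 0.1, the smallest that 3 against 3 arrays can give). GAPDH showed the same order, with 2.88 ± 0.72 against 3.88 ± 0.32 (SD, n = 3 each; exact permutation p = 0.1), while WT PBS arrays lay between 1.17 and 1.77 for beta-actin. The part of RNA quality in each result was not tested. With the beta-actin difference as a covariate, 99 genes were called and 18 of the 88 called genes named here kept their call. With the GAPDH difference the counts were 271 and 32, and among the 4 arrays closest in the beta-actin difference they were 775 and 43. Of the 3360 called genes, 3358 kept their sign with the beta-actin covariate, and all 3360 did in the other 2 fits. Because neither control difference overlapped between the groups, these fits cannot tell RNA quality from the group. All 6 arrays had Xist and no Y-linked transcript above 2.21 on average, as the sex label states.

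**Figure D1:**
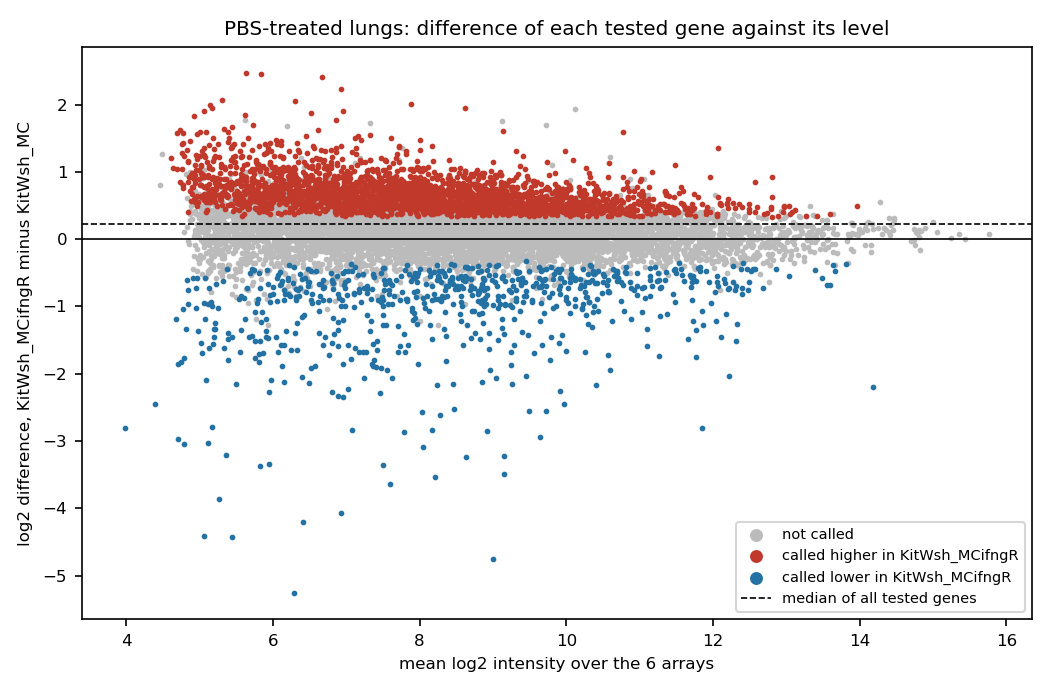
Each point is 1 of the 11044 tested genes of PBS-treated lungs; the x axis is the mean log2 intensity over the 6 arrays and the y axis the log2 difference, MCifngR minus MC. Red genes were called higher (2664) and blue genes lower (696); the dashed line at 0.23 is the median of all tested genes, and the fewer blue points reach further from 0 than the red ones.

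**Figure D2:**
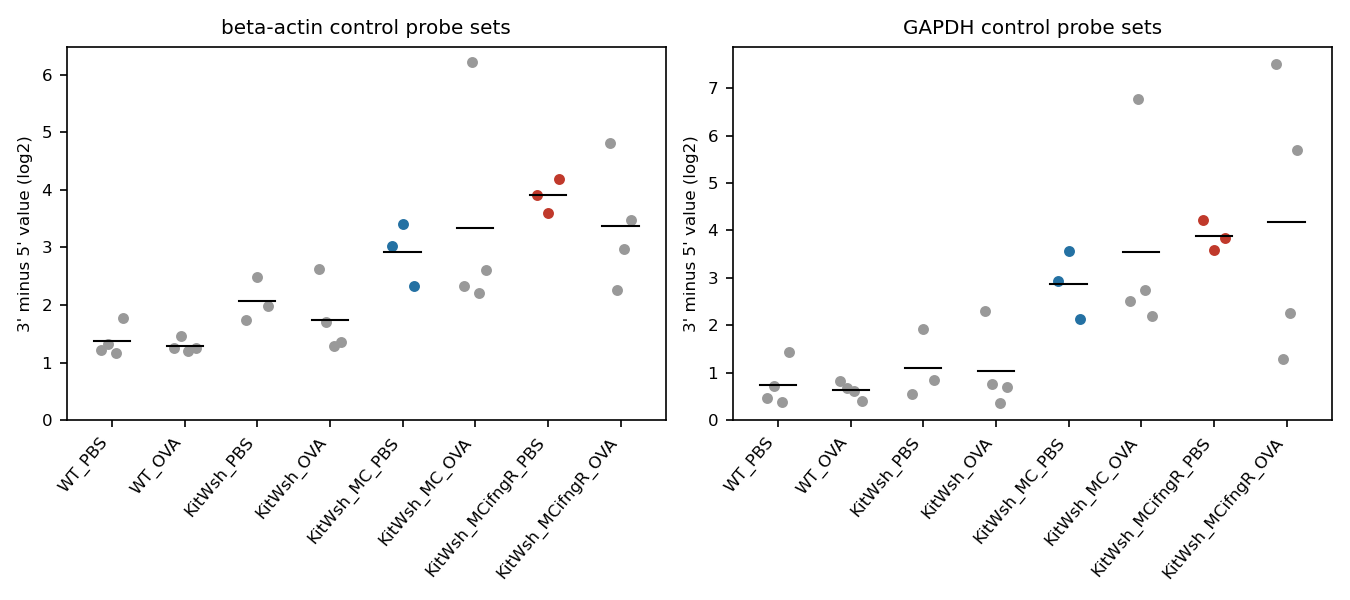
Difference between the 3' and the 5' control probe sets (log2) of beta-actin (left) and GAPDH (right) in every array of 8 groups, with the group mean as a bar. The 3 MCifngR PBS arrays (red) lie above the 3 MC PBS arrays (blue) for both transcripts, and both groups lie above the WT PBS arrays.

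Mast cell proteases and IgE receptor alpha and beta chains were near the background of the array in both groups, and none was called. Of 17 listed mast cell genes on the array, 6 had a log2 value over 5 in at least 3 of the 6 arrays, which was the filter for testing. Cma1, the chymase of connective-tissue mast cells, read 5.03, 2.97 and 4.97 in MC lungs and 5.83, 5.73 and 4.32 in MCifngR lungs. These values overlap (difference 0.97 ± 0.60 SE, limma adjusted p = 0.236), and both groups reached above the 2.27 to 3.69 of unengrafted KitWsh lungs. Cpa3, the carboxypeptidase of the same granules, read 3.79, 3.18 and 3.43 against 4.85, 4.81 and 3.18, all under the filter. Ms4a2 (IgE receptor beta chain) lay between 3.48 and 5.27 over the 6 arrays, Fcer1a (alpha chain) between 3.09 and 4.68, and the tryptases Tpsb2 and Tpsab1 never exceeded 2.74. Mrgprb1, Mcpt1 and Mcpt2 stayed between 2.19 and 2.47, at the floor of the values.

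Kit was low in all engrafted lungs, at 5.10, 5.34 and 5.07 in MC and 6.00, 5.54 and 5.54 in MCifngR, as in unengrafted KitWsh lungs (5.24 to 5.72) and far below the 9.86 to 10.28 of WT lungs. The low lung values of Kit match the sash label. Kit rose by 0.52 ± 0.16 in MCifngR (limma adjusted p = 0.0428), but the call was lost without any 1 of the 6 arrays (0.37 to 0.61, adjusted p up to 0.122) and after centring (0.33, adjusted p = 0.197). Rab27b, which moves secretory granules, rose by 0.40 (adjusted p = 0.0472) and also lost the call after centring (0.20, adjusted p = 0.299) and under 5 of the 6 omissions (adjusted p up to 0.126). Its second probe set differed by -0.09 and was not called. Hdc, the histamine-forming enzyme, Gata2, Srgn (the proteoglycan core of granules) and Fcer1g did not pass, although all lay well above the testing level in both groups, with means of 10.66 and 10.97 for Hdc and 12.55 and 12.49 for Srgn. In whole lung, fewer cells of a type and less RNA per cell cannot be told apart.

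The chains of the IFN-γ receptor were not called lower in MCifngR lungs, whose own cells would keep them under the reading above. Ifngr1 read 9.26, 8.78 and 9.33 in MC lungs and 9.62, 9.67 and 9.61 in MCifngR lungs, so the MCifngR arrays were higher without overlap. The difference of 0.51 ± 0.16 (limma adjusted p = 0.0443) was called, but not after centring (0.31, adjusted p = 0.207), and not when MC array 2 or any 1 MCifngR array was left out (adjusted p up to 0.115). Unengrafted KitWsh lungs spanned 9.69 to 10.09. Ifngr2 read 4.26, 5.23 and 6.31 against 5.85, 5.98 and 5.44, with overlap (adjusted p = 0.418). Of the 8 tested genes for the receptor and its signalling, Ifngr1 was the 1 called, and the list's median difference was 0.15 against 0.23 for all genes. Jak1 (0.17), Jak2 (0.14), the phosphatases Ptpn2 and Ptpn6 and the inhibitor Socs3 (-0.43, adjusted p = 0.0621) were not called. After centring, Socs3 was called lower (-0.63, adjusted p = 0.0296). Its further probe sets disagreed, 1 being called lower (-0.81, adjusted p = 0.0145, over all probe sets) and 1 not called (0.64).

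Genes induced by IFN-γ were higher in MCifngR lungs or did not pass, and Cxcl9 stood furthest out. Cxcl9, a chemokine that draws CXCR3-bearing T cells, read 4.41, 4.46 and 4.33 in MC lungs and 7.49, 5.89 and 7.23 in MCifngR lungs. All MC arrays lay under the testing level of 5 and all MCifngR arrays above it, so Cxcl9 was tested only through the MCifngR arrays. The difference was 2.47 ± 0.37 (limma adjusted p = 0.00438), at least 3.67-fold against that level. Unengrafted KitWsh lungs spanned 4.34 to 7.04 and WT lungs 2.96 to 6.40, across much of both groups. Its partner Cxcl10 was higher by a smaller step, from 5.40, 5.28 and 5.26 to 6.28, 6.16 and 6.09 (0.87 ± 0.11, adjusted p = 0.00324). Of 17 tested IFN-γ response genes, 7 rose and 0 fell, with a median of 0.42, where 24.1% of all genes rose and 6.3% fell. After centring, 2 remained higher, and these were Cxcl9 and Cxcl10.

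Among the other five increases of that list were Tap1, the peptide transporter of antigen presentation (0.56), and Irf8, a transcription factor of myeloid cells (0.59). Neither passed after centring (adjusted p = 0.134 and 0.0957), and Tap1 kept its call under 1 of the 6 omissions of an array. The second probe set of Irf8 was called in the opposite direction (-0.97 ± 0.20, adjusted p = 0.012, over all probe sets). The guanylate-binding proteins Gbp2 (0.25), Gbp3 (0.26) and Gbp6 (0.44), and the GTPases Irgm1 (-0.03) and Iigp1 (-0.17), did not pass. Of 8 genes for MHC class II presentation, 2 were called higher, H2-Ob (0.50) and H2-DMa (0.40), a share near the 24.1% of all genes, and the centred count was 0 higher and 2 lower. Each kept its call under 1 of the 6 omissions of an array (adjusted p up to 0.0693 and 0.108).

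Type I interferon response genes gave more calls, 7 higher and 1 lower of 12, with a median of 0.52. Over all genes, 24.1% were called higher and 6.3% lower. Oas2, an antiviral sensor of double-stranded RNA, read 6.76, 6.75 and 6.38 in MC lungs and 7.49, 8.23 and 7.59 in MCifngR lungs (1.14 ± 0.21, limma adjusted p = 0.00891). Usp18, which removes Isg15 from proteins and damps interferon signalling, rose by 0.80 ± 0.15 and Oas1a by 0.77 ± 0.15. The groups did not overlap for any of these. Ifit1 rose by 0.95 (adjusted p = 0.0134), while Ifit2 (0.07), Rsad2 (0.33) and Bst2 (0.12) did not pass. Xaf1, an interferon-induced apoptosis regulator, went the other way, from 9.31, 9.26 and 9.36 to 8.14, 8.46 and 8.48 (-0.95 ± 0.13, adjusted p = 0.00359). After centring, 4 of the 12 were higher and 1 lower.

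The interferon-stimulated response element, read as GAAA repeated after 2 bases of any kind on either strand, was in 5 of the 12 called-higher interferon genes with a promoter in RefSeq (41.7%), looking at the 250 bases before the start. It was in 12 of the 24 tested interferon genes with a promoter (50%) and in 3.46% of all 27025 promoters. The share was thus no higher among the called genes than among all the tested ones. Promoters of Ifit1, Cxcl10 and Oas1a are printed because their genes were called higher together and carry the element, in capitals, 5′ to 3′ on the gene's strand in GRCm38.p6. Those of Ifit1 and Oas1a hold 2 matches each, which overlap in Oas1a, and that of Cxcl10 holds 1. The windows are chr19:34640639-34640888 (plus strand), chr5:92348890-92349139 (minus strand) and chr5:120907526-120907775 (minus strand).
Ifit1: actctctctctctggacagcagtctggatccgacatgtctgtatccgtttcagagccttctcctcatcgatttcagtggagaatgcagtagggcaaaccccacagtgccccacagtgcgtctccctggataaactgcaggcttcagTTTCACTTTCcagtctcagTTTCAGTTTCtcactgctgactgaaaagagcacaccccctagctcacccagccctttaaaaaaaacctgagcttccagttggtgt
Cxcl10: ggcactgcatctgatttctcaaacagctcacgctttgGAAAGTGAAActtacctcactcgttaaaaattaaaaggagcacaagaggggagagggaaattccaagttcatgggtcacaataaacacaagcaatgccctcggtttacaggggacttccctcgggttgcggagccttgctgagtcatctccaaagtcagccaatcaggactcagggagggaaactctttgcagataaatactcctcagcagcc
Oas1a: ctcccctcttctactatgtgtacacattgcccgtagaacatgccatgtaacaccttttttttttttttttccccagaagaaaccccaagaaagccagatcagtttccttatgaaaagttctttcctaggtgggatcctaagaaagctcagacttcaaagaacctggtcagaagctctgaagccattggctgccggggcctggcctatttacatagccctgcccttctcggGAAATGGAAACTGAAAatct

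Inflammatory chemokine and acute-phase genes were split. Of 6 tested members, 3 rose and 0 fell, before and after centring, and the other 10 members on the array were under the filter. Saa3, an acute-phase amyloid made in inflamed tissue, read 5.27, 5.92 and 5.21 in MC lungs and 6.81, 8.64 and 8.19 in MCifngR lungs (2.41 ± 0.43, limma adjusted p = 0.00815). Ccl8, a chemokine for monocytes and T cells, went from 6.72, 6.96 and 6.97 to 8.85, 8.35 and 9.48 (2.01 ± 0.26, adjusted p = 0.00298). Cxcl1, which draws neutrophils, went from 4.27, 4.31 and 4.30 to 6.38, 5.94 and 5.34, at least 1.85-fold against the level of 5. It is 1 of the 3 increases but was tested only through the MCifngR arrays. A second Cxcl1 probe set differed by 0.82 and was not called. Lcn2 (-0.19), Il1b (-0.61) and Ccl9 (0.24) did not pass.

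Other chemokines stood among the 15 genes of largest increase. Ccl12, a ligand of Ccr2, read 3.87, 4.35 and 4.37 in MC lungs and 6.06, 6.05 and 6.34 in MCifngR lungs, a difference of 1.95 ± 0.17 (limma adjusted p = 0.000729). All MC arrays lay under 5, so Ccl12 was tested only through the MCifngR arrays, and its increase is at least 2.22-fold against that level. Unengrafted KitWsh lungs lay between, at 5.04 to 5.75. Cxcl13, which organises B cell follicles, went from 6.49, 5.68 and 5.86 to 7.98, 7.30 and 8.46 (1.90 ± 0.31), and its second probe set rose as well (1.25). WT lungs reached 6.89 to 9.36 for Cxcl13, around the MCifngR values. Ccr2, the receptor of Ccl12 on monocytes, was lower in MCifngR lungs (-0.57 ± 0.15, adjusted p = 0.0254), with the call lost when MC array 2 or 3 or MCifngR array 1 or 3 was left out (adjusted p up to 0.0881). The further Ccr2 probe sets differed by 0.03 and -0.03 and were not called.

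**Figure D3:**
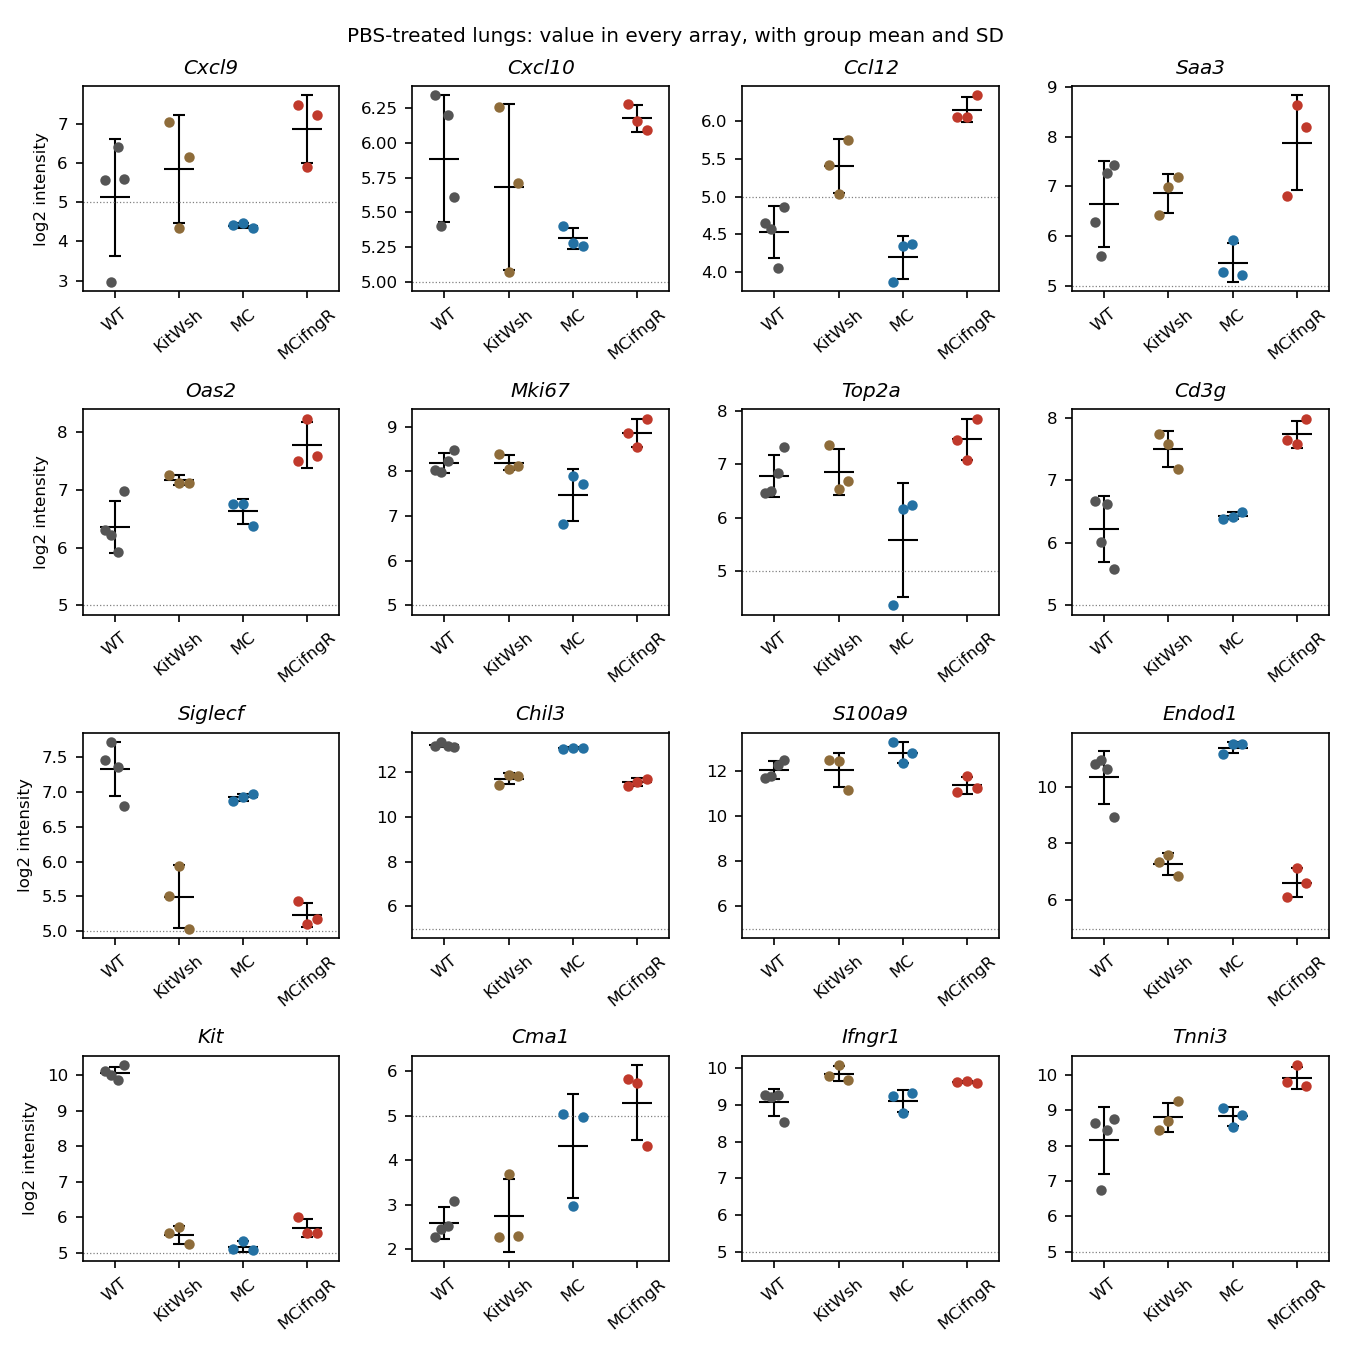
Log2 intensity of 16 genes in every array of the 4 PBS-treated groups WT, KitWsh, MC and MCifngR, with the group mean as a bar and the SD as whiskers; the dotted line at 5 is the testing level and each panel has its own y axis. Cxcl9, Ccl12 and Cd3g are higher in MCifngR than in MC lungs without overlap, Siglecf, Chil3 and Endod1 lower, and for these last 3 the KitWsh lungs lie near the MCifngR lungs and the WT lungs near the MC lungs.

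Genes of dividing cells had the highest median of the lists with at least 5 tested genes. Of 10 tested cell cycle genes, 8 rose and 0 fell, where 24.1% of all genes rose and 6.3% fell. The list's median was 1.30 against 0.23 for all genes, and 5 members stayed higher after centring. Mki67, the marker of cycling cells, read 6.82, 7.89 and 7.71 in MC lungs and 8.87, 8.54 and 9.18 in MCifngR lungs (1.39 ± 0.29, limma adjusted p = 0.0122). Top2a, which untangles replicated DNA, went from 4.36, 6.16 and 6.23 to 7.45, 7.08 and 7.85. The MC arrays were apart from each other, and the call (1.87 ± 0.47, adjusted p = 0.0234) was lost without MCifngR array 1 or 3 (adjusted p up to 0.0773). Rrm2, a subunit of the enzyme that makes deoxynucleotides, rose in both of its probe sets, by 1.38 and 1.26. Ccnb2, a mitotic cyclin, lay at most at 4.25 in the MC arrays and at 5.76, 5.21 and 5.74 in the MCifngR arrays (1.58 ± 0.23), and the spindle protein Nusap1 went from 3.83, 4.23 and 4.76 to 6.24, 6.01 and 6.79 (2.07 ± 0.27). Both were tested only through the MCifngR arrays, and their increases are at least 1.48-fold and 2.54-fold against the level of 5. WT and unengrafted KitWsh lungs lay between the groups for Mki67, at 7.99 to 8.49 and 8.06 to 8.38, and nearer to the MC values for Rrm2, with means of 7.53 and 7.39 against 7.03 in MC and 8.41 in MCifngR lungs. Bub1 (0.91) and Cdc20 (0.61) did not pass.

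Cell cycle promoters often hold a CCAAT box and the cell cycle homology region, read here as TTTGAA, each on either strand. CCAAT was in 6 of the 7 called-higher genes with a promoter (85.7%) and in 37.5% of all promoters, and TTTGAA in 3 of 7 (42.9%) against 18.3%. Among all tested cell cycle genes with a promoter the counts were 8 of 9 (88.9%) and 4 of 9 (44.4%), so the called genes did not hold them more often. The promoters of Top2a (chr11:99024190-99024439, minus strand) and Ccnb2 (chr9:70421555-70421804, minus strand) are shown from the same RefSeq build, with matches in capitals. These are the called-higher cell cycle genes of largest difference whose promoter holds both elements.
Top2a: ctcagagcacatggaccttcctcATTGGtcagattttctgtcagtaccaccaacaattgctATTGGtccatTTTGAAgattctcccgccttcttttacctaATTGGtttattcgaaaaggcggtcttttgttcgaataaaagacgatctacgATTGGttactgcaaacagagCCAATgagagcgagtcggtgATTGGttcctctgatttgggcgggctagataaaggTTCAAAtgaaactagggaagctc
Ccnb2: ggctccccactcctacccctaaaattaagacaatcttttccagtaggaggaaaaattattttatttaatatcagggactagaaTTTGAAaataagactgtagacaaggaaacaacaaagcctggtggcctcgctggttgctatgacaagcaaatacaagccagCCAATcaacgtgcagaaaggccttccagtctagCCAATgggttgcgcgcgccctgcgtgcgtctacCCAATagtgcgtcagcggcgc

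Most tested T cell genes were higher, 5 of 7 with 0 lower and a median of 0.73, where 24.1% of all genes were higher. The list has 11 genes on the array, and those not tested were under the filter. Cd3g, a chain of the T cell receptor complex, read 6.39, 6.41 and 6.50 in MC lungs and 7.65, 7.58 and 7.99 in MCifngR lungs (1.30 ± 0.14, limma adjusted p = 0.00154). Icos, a costimulator of activated T cells, went from 5.73, 6.17 and 5.67 to 7.36, 7.10 and 7.27 (1.39 ± 0.16, adjusted p = 0.00219). Both stayed called after centring, and they were the 2 of the list that did. Cd3e (0.18) and Cd8a (0.13) did not pass. Il7r was called higher (0.63), but its second probe set was called lower (-1.79 ± 0.25). Cd28 was called higher as well (0.90 ± 0.21, adjusted p = 0.0184). That call was lost after centring (adjusted p = 0.0555) and under 4 of the 6 omissions of an array (adjusted p up to 0.0639). WT lungs were at 5.58 to 6.67 for Cd3g, around the MC values, and unengrafted KitWsh lungs at 7.18 to 7.74, around the MCifngR values.

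B cell genes gave 2 increases among 10, the inhibitory coreceptor Cd22 (0.85 ± 0.17) and the kinase Blk (0.75 ± 0.19), with Cd79a (-0.10), Cd79b (0.32) and Ms4a1 (0.34) not called. That share is below the 24.1% of all genes, and 1 increase was left after centring, Blk having lost its call (0.55, adjusted p = 0.083). Of 9 plasma cell genes, 4 rose: Derl3 (1.42 ± 0.29), Mzb1 (1.15 ± 0.33), Irf4 (1.04 ± 0.30) and Fkbp11 (0.47 ± 0.15). After centring, Derl3 was the 1 that remained higher and 2 were lower. Mzb1, a chaperone of antibody assembly, ran from 8.84 to 10.37 over the 3 MCifngR arrays and lost its call under 5 of the 6 omissions, as did Fkbp11, while Irf4 lost it under 4 (adjusted p up to 0.0894, 0.133 and 0.101). Blk lost it without MC array 2 or 3 or MCifngR array 2 (adjusted p up to 0.0677). Jchain, which joins antibody subunits, differed by 0.07. Among natural killer and cytotoxic genes, 1 of 9 was called, Il2rb (0.71), a share below the 24.1% of all genes. Among dendritic cell genes 3 of 8 were called, Flt3 (1.12), Cd83 (0.83) and Ccl22 (0.80). After centring these counts were 0 and 1.

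Alveolar macrophage genes had 3 decreases among 10 tested, neutrophil genes 3 among 9 and monocyte genes 2 among 13. Over all genes, 6.3% were called lower. Siglecf, a lectin of alveolar macrophages and eosinophils, read 6.86, 6.93 and 6.96 in MC lungs and 5.43, 5.10 and 5.18 in MCifngR lungs (-1.68 ± 0.13, limma adjusted p = 0.000443). Chil3, a chitinase-like protein that alveolar macrophages secrete, went from 13.02, 13.09 and 13.09 to 11.36, 11.57 and 11.71 (-1.52 ± 0.13, adjusted p = 0.000635). The arrays of each group lay close together for both genes, and Siglecf kept its call under every alternative tried. WT lungs were at 6.79 to 7.71 for Siglecf and 13.13 to 13.35 for Chil3, and unengrafted KitWsh lungs at 5.04 to 5.94 and 11.42 to 11.87. The MC group was thus near WT and the MCifngR group near unengrafted KitWsh.

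The rest of the alveolar macrophage list did not follow these genes. Of 10 tested, 3 fell, the third being Krt79 (-0.82), and Marco rose, from 4.78, 5.85 and 5.12 to 5.71, 6.54 and 7.32 with overlap (1.27 ± 0.41, limma adjusted p = 0.0485). Marco is a scavenger receptor, and its call was lost after centring (adjusted p = 0.107) and under 4 of the 6 omissions (adjusted p up to 0.13). Krt79 lost its call without MC array 2 or MCifngR array 2 or 3 (adjusted p up to 0.0587). Fabp4 (0.34), Pparg (-0.19), Itgax (0.55) and Cd68 (0.11) were not called. The list's median was -0.10, and its mean level overlapped between groups, at 8.00 to 8.27 in MC and 7.86 to 8.16 in MCifngR lungs. Monocyte and macrophage genes were split, with Cd14 (0.75 ± 0.12) and Ms4a7 (0.84 ± 0.20) higher and C1qb (-0.63 ± 0.15) and Ccr2 lower. After centring, 1 gene of that list was higher and 4 lower, where 826 of all 11044 genes were higher and 1064 lower. C1qb lost its call without MCifngR array 1 or 2 (adjusted p up to 0.0635). Of its further probe sets, 1 was called lower (-0.66) and 1 was not called (0.22).

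Neutrophil genes had a median of -0.55, the lowest of any list with at least 5 tested genes. S100a9, an abundant calcium-binding protein of neutrophils, read 13.32, 12.37 and 12.84 in MC lungs and 11.08, 11.81 and 11.28 in MCifngR lungs (-1.45 ± 0.27, limma adjusted p = 0.00876). Cxcr2, the receptor of Cxcl1, fell from 5.21, 5.43 and 5.12 to 4.70, 4.70 and 4.61. It was tested only through the MC arrays, and its decrease is at least 1.19-fold against the level of 5. Mmp9, a gelatinase, fell by 0.55. Mmp9 kept its call under 1 of the 6 omissions (adjusted p up to 0.122 in the others). Ltf, lactoferrin, went the other way (0.95 ± 0.20), and 5 of 9 genes, S100a8 (-0.76) and Lcn2 among them, did not pass. Unengrafted KitWsh lungs spanned 11.19 to 12.53 for S100a9, across both groups.

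Most tested ciliated and goblet cell genes were higher in MCifngR lungs, and most club cell and alveolar genes did not pass. Of 12 tested ciliated cell genes, 8 rose and 1 fell, with 4 higher and 1 lower after centring. Over all genes before centring, 24.1% rose and 6.3% fell. Dnaic1, a dynein chain of the ciliary motor, read 4.84, 4.09 and 5.04 in MC lungs and 6.24, 6.22 and 6.03 in MCifngR lungs (1.51 ± 0.23, limma adjusted p = 0.00499), and its second probe set rose by 1.13. Tekt4 and Lrrc23, parts of the axoneme, rose by 1.07 ± 0.15 and 0.88 ± 0.11. Foxj1, the master regulator of ciliated cells, did not pass (0.06), nor did Dnah5 (-1.19). Spag17, an axoneme gene outside the list, fell from 7.36, 7.93 and 7.59 to 3.45, 4.54 and 4.86.

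Secretory genes of the airway rose in 4 of 5 tested cases, where 24.1% of all genes rose. The goblet cell list has 10 genes on the array, and those not tested were under the filter. Gp2 went from 6.36, 5.82 and 5.77 to 7.21, 7.37 and 8.69 (1.77 ± 0.37, limma adjusted p = 0.0129). Tff2, a trefoil peptide that protects mucus layers, went from 7.45, 6.96 and 6.71 to 8.24, 8.21 and 8.80 (1.37 ± 0.23). The mucin Muc5b (1.00 ± 0.24) and the mucus protein Fcgbp (1.00 ± 0.25) rose too, but not after centring (adjusted p = 0.0551 and 0.0587). Muc5b also lost the call without MC array 3 or MCifngR array 3, and Fcgbp under 4 of the 6 omissions (adjusted p up to 0.0564 and 0.0672). Clca1, a goblet cell product of allergic airways, differed by 0.24 and did not pass. Club cell genes gave 1 increase among 9 (0 after centring), below the 24.1% of all genes, and Scgb1a1, their main secretion, differed by 0.08.

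In the alveolus, 1 of 9 type 2 genes and 1 of 10 type 1 genes were called, against 30.4% of all genes in either direction. Sftpb, a surfactant protein, read 12.57, 12.40 and 12.22 in MC lungs and 10.45, 11.28 and 11.02 in MCifngR lungs (-1.48 ± 0.21, limma adjusted p = 0.00398). Sftpc (0.08), Sftpa1 (0.11), Sftpd (0.06) and Abca3 (0.00), genes of the same cells, did not pass, and Sftpb was the 1 gene of its list called. Akap5 was the type 1 gene called (-1.14). Of 13 endothelial genes, Plvap, which forms the diaphragms of fenestrae, was the 1 called, from 10.93, 11.06 and 11.00 to 9.01, 10.38 and 9.66 (-1.31 ± 0.30, adjusted p = 0.0172), with the call lost without MCifngR array 3 (adjusted p = 0.0546). Pecam1 (0.40), Cdh5 (0.35) and Cldn5 (-0.29) did not pass.

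Some transcripts of heart muscle, which in mice also sheathes the pulmonary veins, and of skeletal muscle were higher in MCifngR lungs. Of 13 cardiomyocyte genes, 7 rose and 0 fell, with a median of 1.09, where 24.1% of all genes rose and 6.3% fell. After centring, 2 stayed higher. Nppa, the atrial natriuretic peptide, read 6.78, 4.21 and 6.46 in MC lungs and 7.82, 8.51 and 7.80 in MCifngR lungs (2.23 ± 0.60, limma adjusted p = 0.0288), but not after centring (adjusted p = 0.0525) or without any 1 MCifngR array (adjusted p up to 0.0841). Tnni3, cardiac troponin I, went from 9.07, 8.54 and 8.88 to 9.80, 10.28 and 9.69, and Actc1, cardiac actin, from 10.74, 10.86 and 11.20 to 12.26, 12.34 and 11.53. Myh6 (0.76), Myl7 (0.89), Casq2 (0.51) and the giant sarcomere protein Ttn (-0.97) were among the 6 not called. The array mean of the list was 7.65 to 8.66 in MC lungs and 8.81 to 9.70 in MCifngR lungs.

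Of 11 skeletal muscle genes on the array, 8 were under the filter and 3 were called higher before and after centring, 1 of them, Ckm, tested only through the MCifngR arrays. Ckm, muscle creatine kinase, went from 4.88, 4.23 and 4.97 to 6.62, 7.03 and 5.94 (1.84 ± 0.30, limma adjusted p = 0.00586), and Mb, myoglobin, rose by 1.31. Pgam2, the muscle form of a glycolytic enzyme, went from 4.14, 3.77 and 4.52 to 6.44, 6.27 and 5.73 (2.00 ± 0.24, adjusted p = 0.00234). Pgam2 too was tested only through the MCifngR arrays, so its increase is at least 2.21-fold against the level of 5. Unengrafted KitWsh lungs spanned 4.18 to 4.87 and WT lungs 3.08 to 4.58. Adipoq, the adipocyte hormone adiponectin, went from 3.59, 3.75 and 4.69 to 5.31, 6.16 and 6.04, at least 1.79-fold against the same level. It was likewise tested only through the MCifngR arrays. Of 12 adipocyte genes on the array, 4 were tested, and 2 of these rose, Adipoq among them. The part of attached muscle and fat in other results was not tested.

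Several genes of the circadian clock were called in both directions. Of 12 tested repressor and output genes, 6 rose and 2 fell, where 24.1% of all genes rose and 6.3% fell. After centring, 3 rose and 2 fell. Per2, a core repressor, read 7.21, 8.08 and 7.51 in MC lungs and 8.84, 8.76 and 8.68 in MCifngR lungs (1.16 ± 0.21, limma adjusted p = 0.0083), and its second probe set rose by 1.10. Cry1 rose by 0.79 ± 0.13, while Nr1d1, another repressor, fell by 0.68. Hlf and Tef, related output factors, had probe sets called in opposite directions: -1.63 and 1.23 for Hlf, 0.68 and -3.60 for Tef. Dbp (-0.51), Per3 (0.30) and Cry2 (0.19) did not pass, and no time of collection was given in the sources used here.

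**Figure D4:**
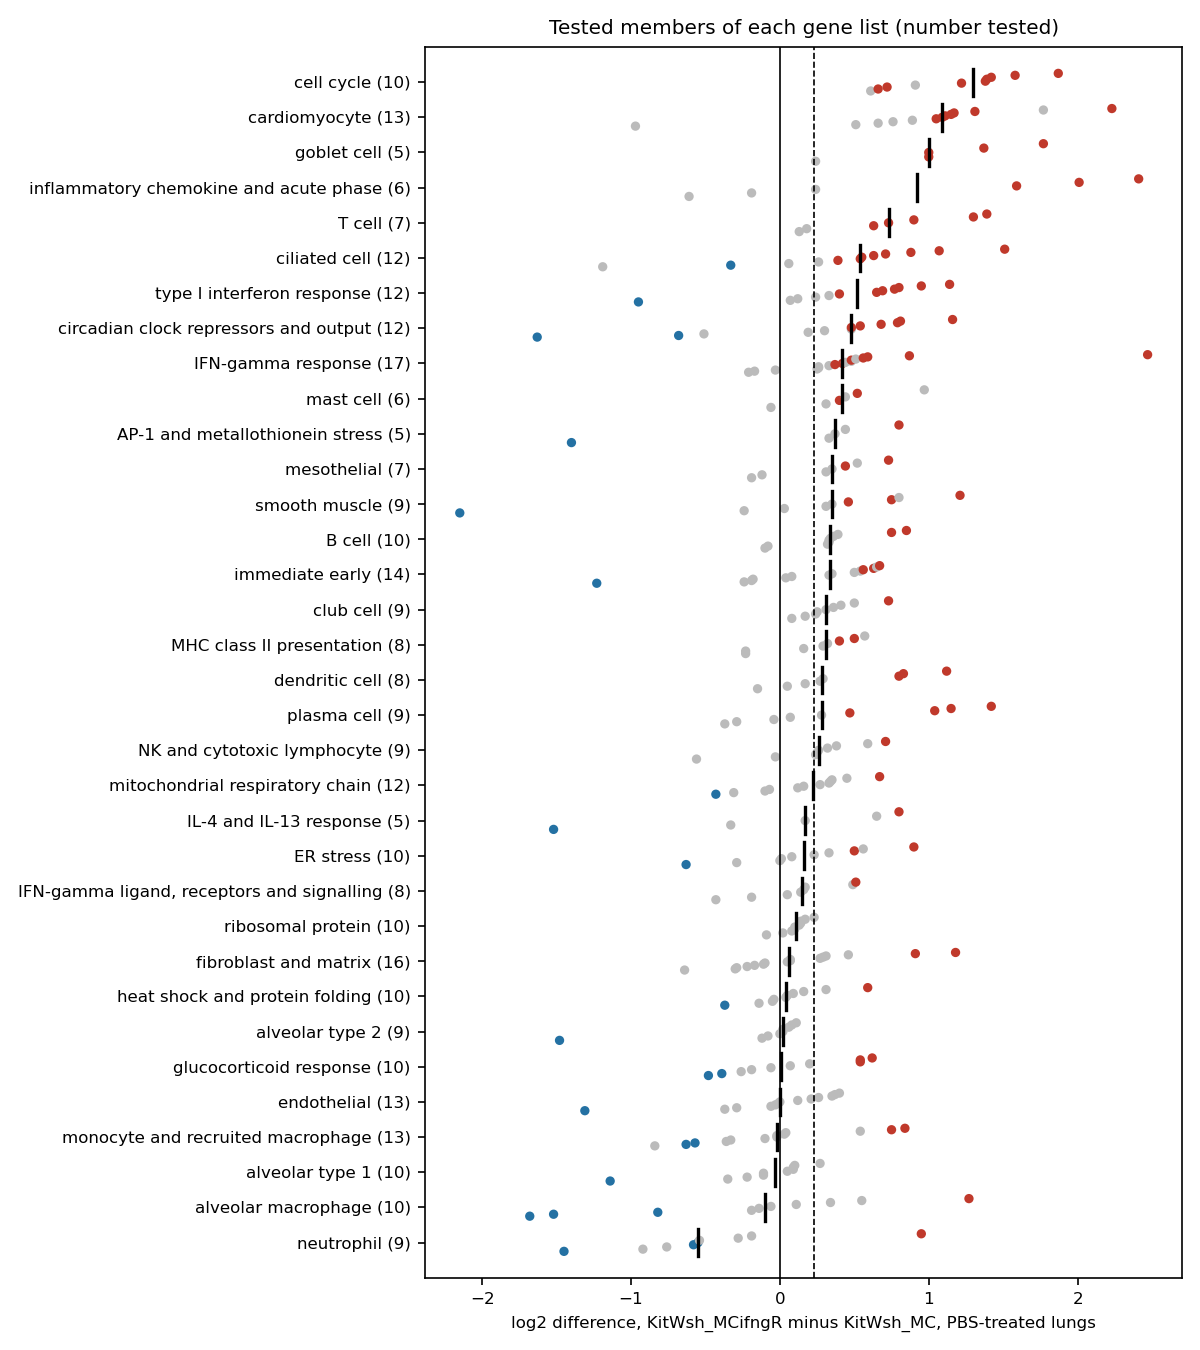
Log2 difference, MCifngR minus MC, of the tested members of every list with at least 5 tested genes (number tested in brackets), ordered by the list's median (black bar). Red members were called higher, blue lower and grey not called; the solid line is 0 and the dashed line 0.23, the median of all genes, and cell cycle (1.30) and cardiomyocyte (1.09) genes lie highest and neutrophil genes (-0.55) lowest.

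The 15 named genes of largest decrease differed by -4.75 to -3.03 on the log2 scale. In 7 of them all MCifngR arrays lay under 5, so these were tested only through the MC arrays. Their fold has only a lower bound, from 2.48 for Ercc6 to 11.5 for Mical2. Endod1, an endonuclease-domain protein, read 11.13, 11.49 and 11.48 in MC lungs and 6.12, 7.12 and 6.62 in MCifngR lungs, a 26.9-fold difference (-4.75 ± 0.24, limma adjusted p = 0.000104). Lncpint, a long noncoding RNA, went from 6.80, 8.03 and 8.15 to 3.20, 3.28 and 3.26, at least 6.33-fold against the level of 5. Mical2, an actin-oxidising enzyme, went from 7.76, 8.89 and 8.90 to 3.97, 4.52 and 4.44. Fbxo32, a ubiquitin ligase of muscle wasting, went from 9.98, 9.85 and 10.08 to 6.33, 5.97 and 7.02 (-3.53 ± 0.25). Itgb6, the epithelial integrin chain that activates TGF-β, went from 8.55, 9.44 and 9.55 to 5.41, 6.29 and 5.77 (-3.36 ± 0.31). Other genes of this group were Paqr8, Bcam, Gprin3, Rb1cc1, Chic1, Spag17, Dnajb14, Csnk2a1, Ercc6 and Ptar1, with differences from -4.07 to -3.03. The naming rule passed over 2610024D14Rik, a gene with a clone name, which was the lowest of all tested (-5.26 ± 0.39) and is given after its value was seen.

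For most of these genes the unengrafted KitWsh lungs lay on the MCifngR side of the MC lungs. For 14 of the 15 genes, all unengrafted KitWsh arrays lay below all MC arrays, and for 10 the KitWsh range overlapped that of MCifngR. WT arrays lay below all MC arrays for 8 of the 15 and overlapped MCifngR for 1. Endod1, for example, was at 6.84 to 7.60 in KitWsh and 8.94 to 10.95 in WT lungs. Bcam was the exception, at 7.31 to 8.10 in KitWsh lungs against 7.75, 6.65 and 7.21 in MC and 2.78, 3.65 and 3.60 in MCifngR lungs. Of the 15 named genes of largest increase, 6 had all KitWsh arrays above all MC arrays, and 6 all WT arrays. The genes were chosen for their distance from MC, so these counts are a description.

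Probe sets of one gene often disagreed. Endod1 had 4 further tested probe sets, of which 3 were called lower (-0.93 to -3.68) and 1 did not differ (0.13). Csnk2a1, a kinase subunit, had differences of -3.22, -1.64, 0.17 and 0.45. Dnajb14 read -3.24 in one probe set and 0.53, called higher, in the other, and Chic1 -3.37 and 0.58, likewise called. For Paqr8, Rb1cc1 and Fbxo32 the further probe sets were not called and lay between -0.04 and 0.58. Malat1, an abundant nuclear RNA named after its values were seen, fell by 2.19, and its 6 other probe sets ran from -4.46 to 0.37. Over all 696 genes called lower, 412 had another tested probe set. It was called lower for 151 (36.7%) and called higher for 76 (18.4%). Among 863 such genes called higher, the corresponding shares were 29.4% called in the same direction and 24.9% in the opposite one. With every probe set tested on its own, 3437 (19%) of 18070 were higher and 2055 (11.4%) lower.

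**Figure D5:**
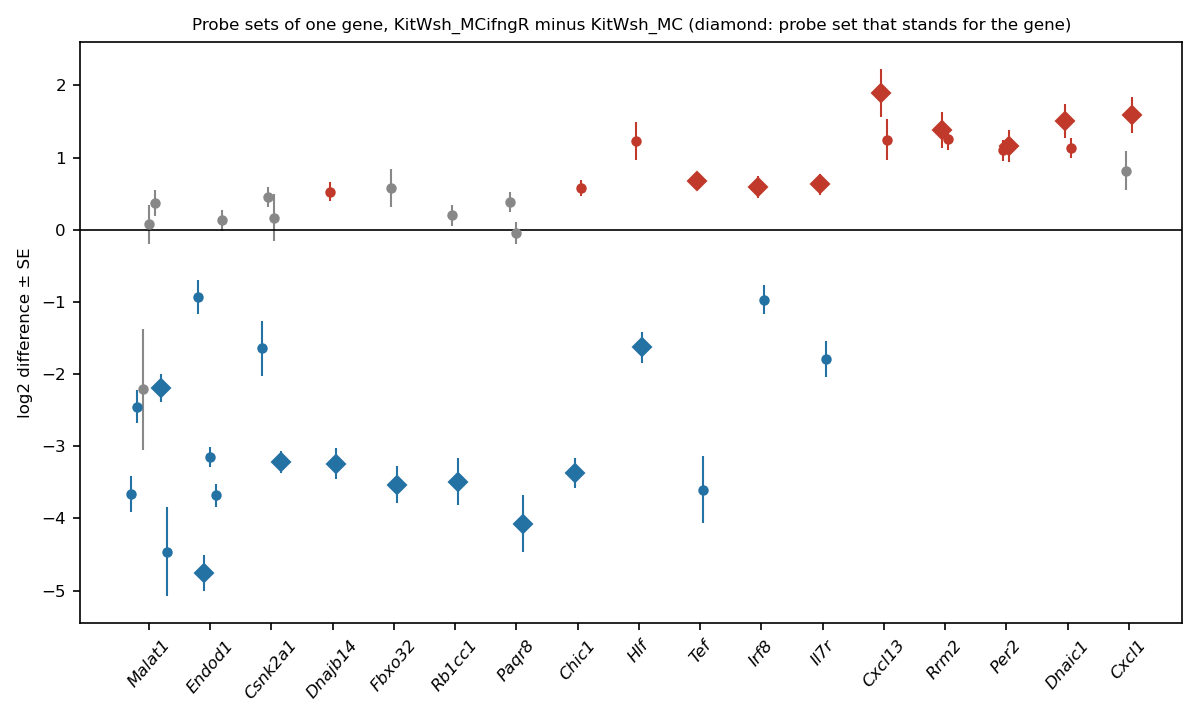
Log2 difference ± SE, MCifngR minus MC, of each tested probe set of 17 genes, with the probe set that stands for the gene as a diamond; red was called higher, blue lower and grey not called, over all probe sets. Cxcl13, Rrm2, Per2 and Dnaic1 rise in both probe sets, while Hlf, Tef, Irf8, Il7r, Chic1 and Dnajb14 have probe sets called in opposite directions.

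The remaining genes of largest increase belonged to no list. Klhl42, a ubiquitin ligase adaptor, read 3.98, 4.41 and 5.45 in MC lungs and 7.18, 7.07 and 6.95 in MCifngR lungs (2.45 ± 0.33, limma adjusted p = 0.00327). Unengrafted KitWsh lungs lay at 7.22 to 7.63 and WT lungs at 5.44 to 6.21. Prr3 rose by 2.05 ± 0.26, and Ada, adenosine deaminase, from 4.16, 3.37 and 4.77 to 5.76, 5.75 and 6.51. Ada was tested only through the MCifngR arrays, and its increase is at least 2.01-fold against the level of 5. Reg3g, an antimicrobial lectin of airway epithelium, overlapped between the groups, at 8.74, 6.62 and 7.59 against 8.56, 9.75 and 10.49 (1.95 ± 0.59, adjusted p = 0.0412), and lost its call after centring (adjusted p = 0.0782) and under 4 of the 6 omissions (adjusted p up to 0.127).

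The same contrast after OVA was measured on 4 MC and 4 MCifngR arrays that share no sample with the PBS arrays. Of 11217 genes tested there, 542 (4.83%) were called, 470 higher (4.19%) and 72 lower (0.642%) in MCifngR. The beta-actin and GAPDH 3' minus 5' differences reached 6.23 and 6.77 in MC OVA array 2. They were 4.81 and 7.51 in MCifngR OVA array 1 and 3.48 and 5.69 in array 4. Without MC OVA array 2, 61 genes were called, and the part of RNA quality in the OVA results was not tested. Of the 2631 genes called higher under PBS and tested in both, 80.3% were also positive under OVA, against 63.3% of genes not called under PBS. Of the 660 called lower, 73.2% were negative, against 36.7%. Shared calls were 227 higher (8.63% of the PBS calls and 49.7% of the OVA calls) and 14 lower (2.12% and 23.7%). Of the genes named by the naming rule, 9 were called under OVA. Klhl42 rose again (2.12, limma adjusted p = 0.0447), as did Dnaic1 (1.89, adjusted p = 0.0365), Actc1 (1.23, adjusted p = 0.0371) and Rab27b (1.16, adjusted p = 0.0332). Hlf fell again (-2.14, adjusted p = 0.0402). Marco, called higher under PBS (1.27), was lower under OVA (-2.71, adjusted p = 0.0486). Socs3 (-1.13, adjusted p = 0.0411) and Ccl9 (-1.47, adjusted p = 0.0437), not called under PBS, were lower under OVA. Saa3 was lower under OVA (-3.06, adjusted p = 0.0371), but its difference between the contrasts did not pass the interaction test (5.47 ± 0.92, adjusted p = 0.0561). Y-linked transcripts averaged 7.01 in MCifngR OVA array 2 and 6.62 in array 3, where Xist was low, against the sex label. Without them limma called 0 genes (2098 at an unadjusted p under 0.05).

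The difference between the PBS and the OVA contrast was tested as an interaction, and 5 of 11412 genes (0.0438%) were called, 4 positive (0.0351%) and 1 negative (0.00876%). Ccl12 was 1.95 higher in MCifngR under PBS and 1.73 lower under OVA, with an interaction of 3.68 ± 0.57 (limma adjusted p = 0.0386). Timp1, an inhibitor of matrix proteases, had the largest interaction (4.52 ± 0.66), from 0.91 under PBS and -3.61 under OVA. The metallothionein Mt2 (2.28), the tetraspanin Tspan4 (2.43) and Igfbp3, a carrier of insulin-like growth factors (-2.38), were the others. Without the 2 arrays of high Y-linked values, limma called 0 genes for the interaction (1224 at an unadjusted p under 0.05).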

How the data were processed

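The deposited values of 45101 probe sets of the Affymetrix Mouse Genome 430 2.0 array are log2 intensities that the authors obtained with GCRMA, as the submitters' processing notes record without a version. GCRMA models background from probe sequence, quantile normalises and summarises probes. Values ran from 2.19 to 15.9, and those near the floor have no order. In the platform annotation 34945 probe sets had 1 symbol, 932 had several, 9160 had none and 64 were controls. For each of 18193 genes the probe set of highest mean over the 6 arrays stood for the gene, and a gene was tested if over 5 (log2) in at least 3 arrays. Limma 3.58.1 in R 4.3.3 (lmFit, eBayes) fitted the 6 arrays alone, leaving 4 residual degrees of freedom. OVA arrays were fitted separately, and the interaction on all 14 arrays. A call is a Benjamini-Hochberg adjusted p under 0.05, two-sided. "At least" folds compare the higher mean with 5 where the other group lay under 5 on all arrays.

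Named genes are the 15 largest and 15 smallest called differences (clone, predicted and immunoglobulin names passed over), mast cell genes, Kit, Ifngr1, Ifngr2, Fcer1g, and up to 4 members of smallest p in each described list. Other list members are given as values. Members and lists were chosen with earlier results of these data known. The number of arrays limits precision. On simulated arrays with independent noise for each gene and no shift over all genes, 200 of 11044 genes were changed. Recovered were 27.7% of 1.5-fold, 69.8% of 2-fold, 96.1% of 4-fold and 99.4% of 8-fold changes, with a median of 6.5 false calls. The real arrays had 3360 calls, a median difference of 0.23 and control probe sets that moved with the group. These shares therefore do not give the recovery in the real comparison. Replicates have no number shared between groups, so nothing was paired.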

Additional observations from a re-analysis of the deposited data

Results flagged for a closer look

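Each value here was flagged because 1 array of a group of 4 stood apart by Dixon's criterion, or because the PBS and OVA contrasts differed. Chance flags about 1 in 20 groups, and 29 of 324 gene and group pairs were flagged. The 324 include pairs that were skipped because all values were under 5 or equal. The share flagged among the pairs examined was therefore larger. The MC and MCifngR PBS groups, with 3 arrays each, were not examined in this way. The array values below are from WT PBS and OVA arrays, and the interaction values were fitted on the 6 PBS and 8 OVA arrays together.

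WT PBS array 4 was low for Endod1 (8.94, the others 10.61 to 10.95), Paqr8 (6.20), Bcam (6.71), Chic1 (5.84), Ifngr1 (8.53), Xaf1 (8.99), Ms4a7 (6.26), Sftpb (11.74) and Cdh5 (10.29). It was high for Gata2 (9.74) and Lpcat1 (13.24). Its beta-actin 3' minus 5' difference was 1.77, the highest of that group, and the part of RNA quality in these values was not tested. WT PBS array 2 was low for the heart muscle genes Tnni3 (6.75), Tnnc1 (7.19) and Myl4 (7.19) and high for Chil3 (13.35). Klhl42 stood out in WT PBS array 3 (6.21) and Plvap in WT PBS array 1 (11.96).

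Among OVA arrays, MC array 2 was low for Ifngr2 (3.03), Mcm6 (8.30) and Ms4a7 (7.93), and MC array 3 for H2-Ab1 (12.81). MCifngR array 4 was high for Ptpn6 (9.59), Cxcl1 (8.14), Rrm2 (9.88) and Mcm6 (10.28). MCifngR array 1 was low for Oas2 (7.16), Lpcat1 (12.10) and Sftpa1 (14.44), and MCifngR array 2 for Tekt4 (6.99). The beta-actin 3' minus 5' difference was 6.23 in MC array 2 and 4.81 in MCifngR array 1, the highest of each group. The part of RNA quality in these values was not tested either.

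By the interaction test, the MCifngR minus MC difference under PBS exceeded that under OVA for Ccl12 (3.68), Mt2 (2.28), Timp1 (4.52) and Tspan4 (2.43) and was below it for Igfbp3 (-2.38). These 5 calls were lost without the 2 MCifngR OVA arrays of high Y-linked values.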

How the results depend on the processing

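No paired analysis was possible because the groups share no replicate numbers in the labels. Against 3360 calls (2664 higher, 696 lower), the spread of all 36 arrays gave 336 (188 and 148) and that of 35 arrays, without MCigeR PBS array 2, 1755 (1374 and 381). Centring gave 1890 (826 and 1064), no filter on low values 1651 (1273 and 378) and the mean of all probe sets 1745 higher. The beta-actin difference as a covariate gave 99 (45 and 54). Added after seeing the data, the GAPDH covariate gave 271 (144 and 127) and the 4 arrays closest in beta-actin difference 775 (511 and 264). Leaving out 1 array gave 1529 to 2967 calls (1099 to 2318 higher, 430 to 649 lower), the fewest without MCifngR PBS array 1. Quantile normalisation, a filter at 6, the probe set of highest mean over 36 arrays, array weights and a trended robust prior kept all 3 counts within 1.5 times. The cause of each change was not tested.

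OVA calls numbered 542, but 163 after centring, 13 with no filter, 0 without the arrays of high Y-linked values and 0 to 1121 when 1 array was left out. Interaction calls numbered 5, 8 after centring, 0 without those arrays and 0 to 343 when 1 array was left out.

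Of the 88 called genes named, 61 kept the call under every omission of 1 array. Dnaic1, Dnajb14, Endod1, Fbxo32, Gprin3, Klhl42, Lncpint, Mical2, Pgam2, Ptar1 and Siglecf kept it under every setting that tested them. Calls reversed in sign for Paqr8 (0.39) and Chic1 (0.58) with the probe set of highest mean over 36 arrays, and for Irf8 (-0.19), Il7r (-0.58) and Tef (-0.98) with the mean of probe sets. Uncalled values also changed sign. Ptpn2 did so after centring (-0.04), with the mean of probe sets (-0.05) and with beta-actin (-0.13) or GAPDH (-0.02) as covariate, and Sftpa1 (-0.08) and Sftpc (-0.12) after centring. Fcer1g turned with beta-actin (0.09) or GAPDH (0.10), and Ifngr2 without MC array 1 (-0.02; 1.01 at the other end, without MC array 3). Srgn turned with quantile normalisation (0.00), beta-actin (0.14), GAPDH (0.01), the 4 closest arrays (0.06) and without MCifngR array 3 (0.03; -0.15 at the other end, without MC array 2).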
